A study of Homo sapiens with 4 samples.

Results

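The 36 genes described here encode proteins of the peroxisome and of fatty acid oxidation. They were chosen by gene name and make up 36 of the 18650 loci with at least 1 fragment. By the compartment in which their proteins act, 17 were counted as peroxisomal and 16 as mitochondrial. The other 3 were kept apart, since ABCD4 is a lysosomal cobalamin transporter and ECI2 and HSDL2 are found in both organelles. RNA was sequenced from 2 human colon cell lines with and without sturgeon chondroitin sulfate (SCS), a glycosaminoglycan. HT-29 cells come from a colorectal adenocarcinoma, and NCM460 cells served as the normal colon line. Each line was left untreated as the control or given 100 μg/mL SCS for 24 h. With 1 library for each of the 4 conditions, no difference could be checked against replicates, and SCS and control were not tested against each other within a line.

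Fatty acids are shortened by β-oxidation in both organelles. Peroxisomes take very-long-chain and branched acyl chains, import their enzymes through the peroxin (PEX) machinery, and break down the hydrogen peroxide they make with catalase. Mitochondria take most long-chain acyl groups through the carnitine shuttle and pass the electrons to the respiratory chain, and colon epithelium is known to draw much of its energy from oxidising short-chain fatty acids there.

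Sequencing depth was 1654764 fragments for the HT-29 control and 1605372 for its SCS library, against 1347854 for the NCM460 control and 1156568 for its SCS library. In that order, 35.8%, 13.8%, 62.3% and 46.3% came from the mitochondrial genome, a lower share with SCS in both lines. None of the 36 genes lies on that genome. Its part in the values below was not tested, and scaling to nuclear fragments alone was tried as an alternative. That left the nuclear genes of HT-29 1061700 (control) and 1383424 (SCS) fragments, and those of NCM460 507692 and 621582. Fragments were scaled to library size (CPM, counts relative to library size, with TMM factors), and log2 fold changes are SCS over control with a prior count of 2. Each is followed in parentheses by an exact 95% interval from the fragments of both libraries, which covers counting error only. A gene was called higher or lower past 1.5-fold where 0 lay outside its interval. In such bulk RNA, less of a transcript per cell and fewer cells holding it cannot be told apart.

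Levels between genes were compared by FPKM, which is scaled to transcript length. Among the mitochondrial genes, ETFB was highest in the HT-29 control at 108 FPKM, with ACADVL next at 62.6, and ACADVL was highest in the NCM460 control at 111 FPKM, with ETFB next at 82.6. Both stayed the first and second with SCS, in the order ACADVL and then ETFB in each line. The median level of the mitochondrial genes was 14.9 FPKM in control and 14.7 in SCS-treated HT-29 cells, against 20.2 and 17.5 in NCM460 cells. Peroxisomal genes lay lower, with medians of 9.02 and 6.31 FPKM in HT-29 and of 7.66 and 8.72 in NCM460. The highest of them were SCP2 in the HT-29 control (23.9 FPKM), PEX19 in the NCM460 control (40.6) and HSD17B4 in both SCS libraries (27.1 in HT-29 and 23.1 in NCM460). SCP2, PEX19, HSD17B4 and ETFB lie at loci listed with other genes under the same values, so these levels cannot be given to them alone. EHHADH was the lowest peroxisomal gene in each library, at 0.336, 0.355, 0 and 0.687 FPKM. The counts behind these levels were small: 8 of 17 peroxisomal genes had fewer than 10 fragments in the NCM460 control, against 2 of 17 in the HT-29 control.

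**Figure D1:**
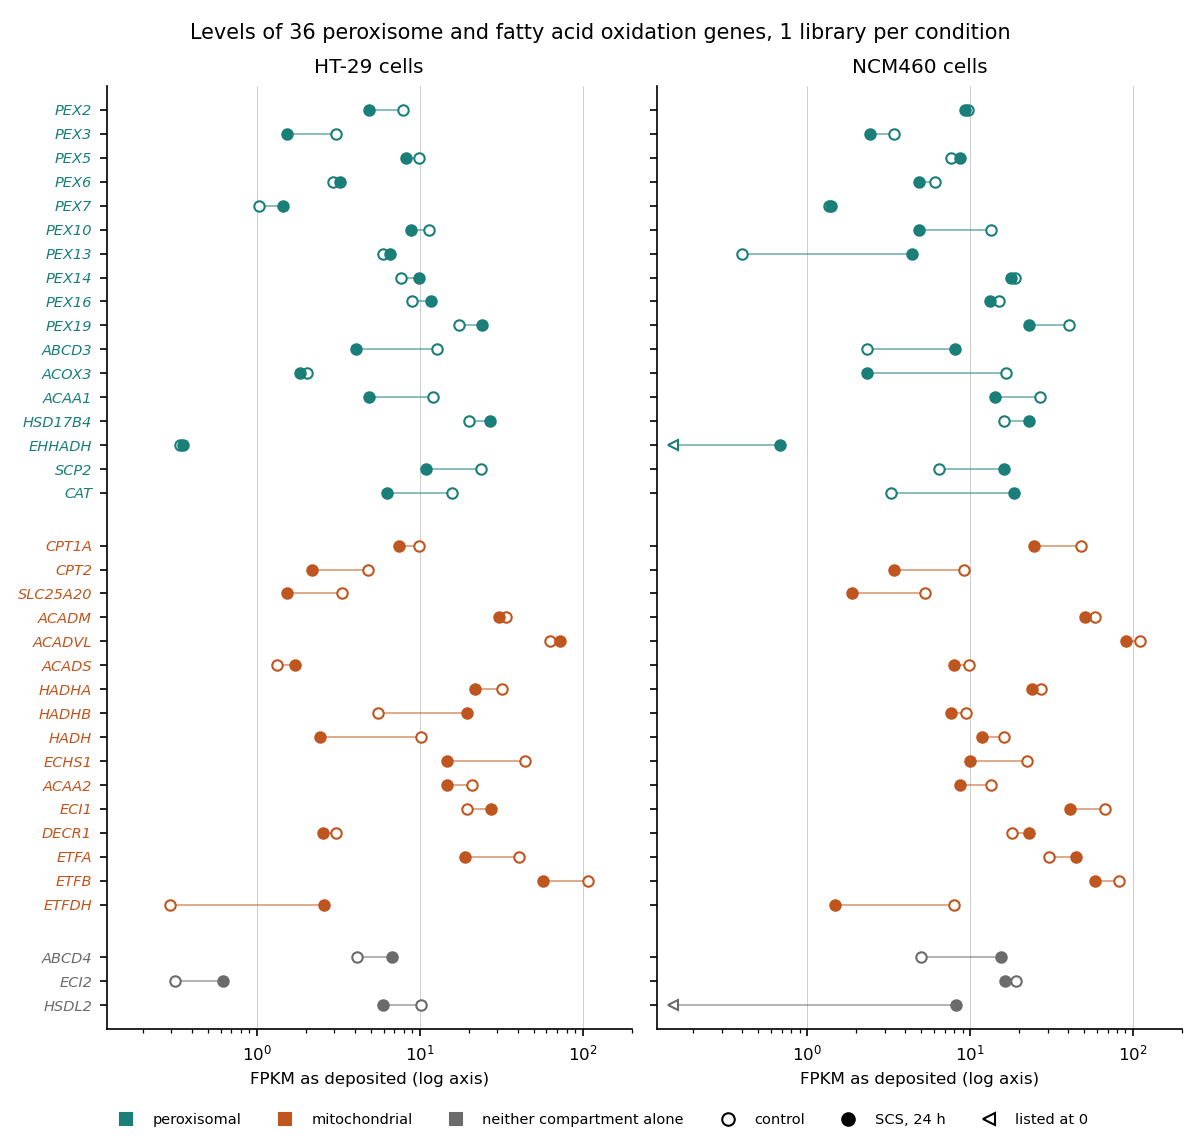
Level of each of the 36 genes in FPKM on a log axis, in HT-29 cells on the left and NCM460 cells on the right, with 1 library per condition. Open points are controls, filled points are SCS, and left-pointing triangles mark the 2 genes listed at 0 in the NCM460 control, EHHADH and HSDL2.

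In HT-29 cells, single genes of both compartments were called in both directions, with medians close to 0 over all genes compared. A mean of at least 1 CPM was reached by 12168 loci, of which 16.8% were called higher and 14.8% lower with SCS, and by 35 of the 36 genes, ECI2 being left out. Of the 17 peroxisomal genes, 1 was called higher (PEX13) and 4 were called lower (CAT, ABCD3, ACAA1 and SCP2), with a median log2 fold change of -0.02. Of the 16 mitochondrial genes, 3 were called higher (HADHB, ECI1 and ACAA2) and 5 lower (HADH, ECHS1, CPT2, ETFA and ETFB), with a median of 0.03. The median of all loci was 0.07. The share called lower was 23.5% of the peroxisomal and 31.2% of the mitochondrial genes, above the 14.8% of all loci, but it rests on 4 and 5 genes. When the libraries were scaled by total fragments alone, the peroxisomal median turned to 0.24 and the median of all loci moved to 0.31. When they were scaled by nuclear fragments, the mitochondrial median turned to -0.12 and the median of all loci to -0.06. Among genes at a mean of at least 5 CPM the medians were -0.30 (peroxisomal) and -0.27 (mitochondrial).

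In NCM460 cells, 7 of the 8 calls were of higher levels, 4 of them of peroxisomal genes. All 36 genes were among the 12657 loci compared, of which 15.4% were called higher and 13.8% lower. Of the 17 peroxisomal genes, 4 were called higher (ABCD3, CAT, SCP2 and HSD17B4) and 0 lower. Their median was 0.29, beside 0.03 for all loci. With genes at 3 fragments or fewer set against a floor of 3 fragments, it was 0.07, beside -0.14 for all loci. Of the 16 mitochondrial genes, 1 was called higher (ETFA) and 1 lower (CPT2), with a median of -0.00 that turned to 0.17 with nuclear scaling and to 0.64 with total fragments, while the median of all loci moved to 0.23 and 0.65. These shares of 23.5% of the peroxisomal and 6.25% of the mitochondrial genes called higher lie on either side of the background, and each rests on few genes.

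**Figure D2:**
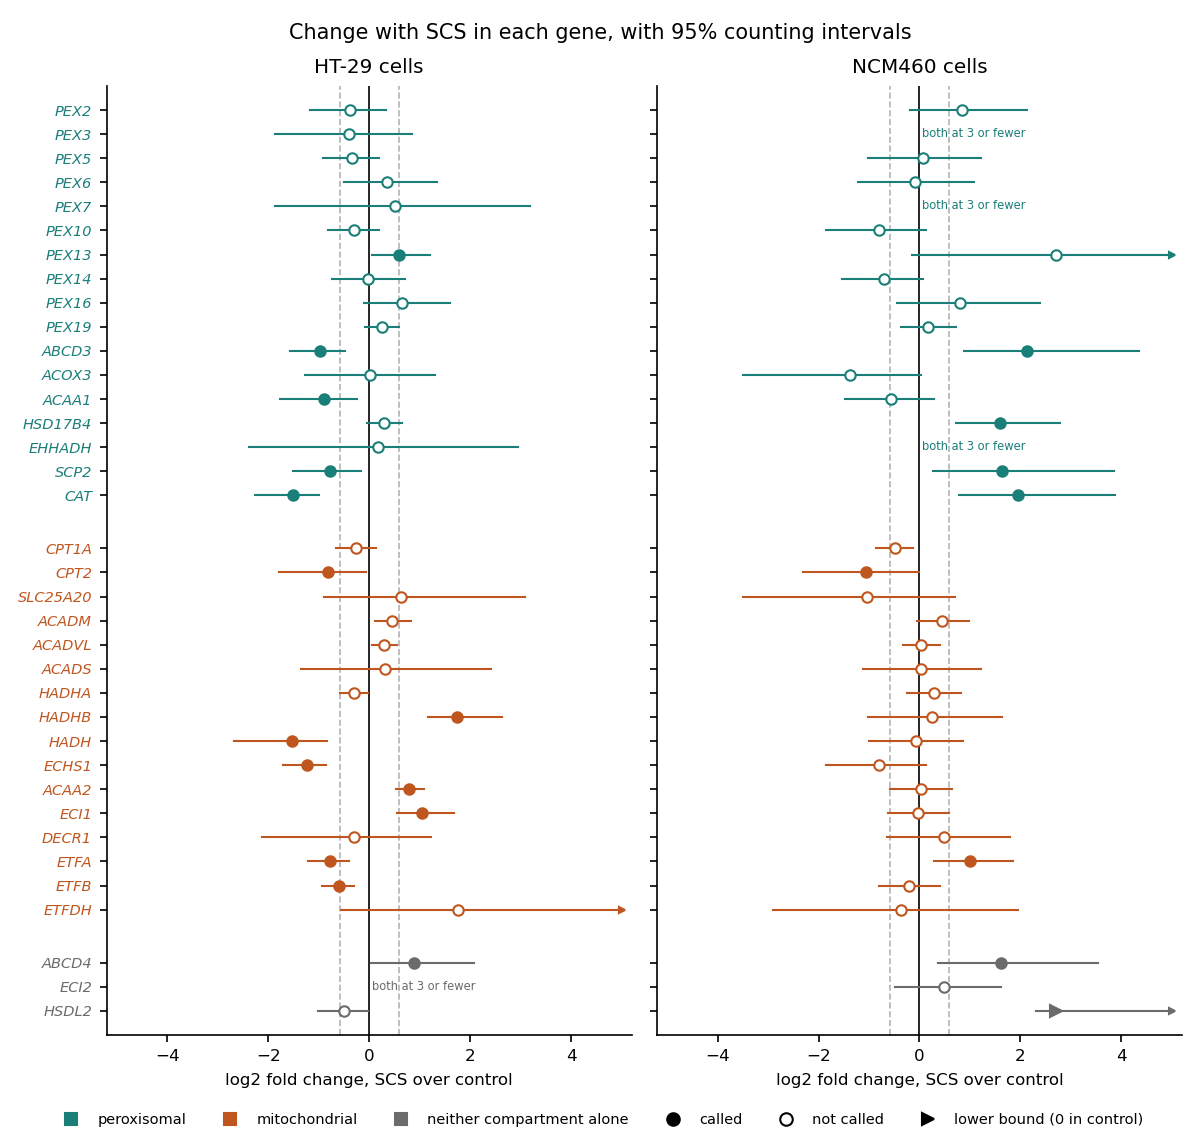
Log2 fold change of SCS over control for each gene, in HT-29 cells on the left and NCM460 cells on the right. Bars are 95% counting intervals, dashed lines mark 1.5-fold, filled points are called genes, genes with 1 to 3 fragments in a library are drawn at their plain ratio, and the large triangle is the bound for HSDL2, which had 0 fragments in the NCM460 control.

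Added together, the 17 peroxisomal genes took a smaller share of nuclear fragments with SCS in HT-29 cells and a larger one in NCM460 cells. The sum was 799 fragments in the HT-29 control and 842 with SCS, or 0.0753% (0.0701 to 0.0807, exact binomial interval) and 0.0609% (0.0568 to 0.0651) of nuclear fragments. In NCM460 cells it was 210 and 374 fragments, or 0.0414% (0.0360 to 0.0474) and 0.0602% (0.0542 to 0.0666). On the TMM scale the log2 ratio of the sums was -0.16 (-0.30 to -0.01) in HT-29, which scaling by total fragments turned to 0.12 (-0.02 to 0.26), and 0.36 (0.11 to 0.61) in NCM460, against 0.54 (0.29 to 0.79) with nuclear and 1.05 (0.81 to 1.30) with total fragments. Leaving out PEX19, the gene with the most fragments, gave -0.25 and 0.41 on the TMM scale. The rise in NCM460 was not shared by the peroxins. Those 10 genes alone summed to 418 and 522 fragments in HT-29 (0.09, -0.10 to 0.28) and to 150 and 214 in NCM460 (0.04, -0.27 to 0.35). The sums were not adjusted for the GC content of the transcripts, to which fold changes in NCM460 were related. The 16 mitochondrial genes summed to 1451 and 1718 fragments in HT-29 and to 586 and 798 in NCM460. In HT-29, 163 and 334 of these were listed for ACAA2, at a locus shared with MYO5B, so their source cannot be told. The share of the 16 genes in nuclear fragments was 0.137% (0.130 to 0.144) and 0.124% (0.118 to 0.130) in HT-29, and 0.115% (0.106 to 0.125) and 0.128% (0.1196 to 0.138) in NCM460. The log2 ratios of these sums depended on the scaling. They were 0.01 (-0.09 to 0.11) in HT-29 and -0.03 (-0.18 to 0.13) in NCM460 by TMM, -0.14 (-0.24 to -0.04) and 0.15 (-0.00 to 0.31) by nuclear fragments, and 0.29 (0.19 to 0.39) and 0.67 (0.51 to 0.82) by total fragments.

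The 10 peroxins, which bring proteins into the peroxisome and build its membrane, held 1 call in HT-29 cells, where 31.5% of all loci were called, and 0 in NCM460 cells, where 29.2% were. PEX13, a docking protein of the import pore, had 41 fragments and 74 after SCS (0.59, 0.05 to 1.21). That call lies just past the threshold and held in only 4 of 13 alternatives, being lost among others with DESeq2's size factors and the authors' own scaling. In NCM460 cells PEX13 went from 1 to 9 fragments, a log2 ratio of 2.70 with an interval from -0.16 to 8.15. PEX16, which brings membrane proteins to the peroxisome, was the highest of the peroxisomal genes in HT-29 by fold but was not called, at 19 and 37 fragments (0.66, -0.11 to 1.61). It had 7 and 18 fragments in NCM460 cells (0.80, -0.44 to 2.39) and was called higher there with the GC trend subtracted (1.49, 0.25 to 3.08) or with total fragments (1.36). PEX19, a chaperone of those membrane proteins, had the most fragments: 128 and 179 in HT-29 cells (0.25, -0.08 to 0.59) and 49 and 77 in NCM460 cells (0.18, -0.36 to 0.73). Its locus is listed together with DCAF8 and a noncoding gene, so its fragments cannot be given to it alone. The other 7 peroxins, PEX2, PEX3, PEX5, PEX6, PEX7, PEX10 and PEX14, were called in neither line. Of these, the receptor PEX5 had 60, 55, 13 and 19 fragments and the ring finger protein PEX10 had 71, 67, 22 and 17 in the order control and SCS of HT-29 and then of NCM460, and PEX3 and PEX7 stood at 3 fragments or fewer in both NCM460 libraries. PEX14 was called lower in NCM460 with DESeq2's size factors (-0.80), the authors' scaling (-0.84) or the length trend subtracted (-0.85). The authors' scaling also called PEX10 lower there (-0.94). Total fragments called PEX2 (1.44), PEX13 (2.11) and PEX19 (0.85) higher in NCM460, and nuclear fragments called PEX13 higher (1.99).

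ABCD3 (ENSG00000117528, chromosome 1 from 94418455 to 94518666, GRCh38) is a transporter that carries acyl-CoA into the peroxisome. It had 81 fragments in the HT-29 control and 47 with SCS, against 4 in the NCM460 control and 29 with SCS. Its log2 fold change was -0.97 (-1.57 to -0.48) in HT-29 and 2.13 (0.87 to 4.35) in NCM460. By FPKM it went from 12.8 to 4.05 in HT-29 and from 2.32 to 8.14 in NCM460. The gene was thus called in both lines and in opposite directions, the NCM460 call being lost when the trend on GC content was subtracted, and the lowest of its 4 counts was in the NCM460 control.

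Of the enzymes of peroxisomal β-oxidation, the thiolases were lower with SCS in HT-29 cells. ACAA1, a thiolase of the last step, had 42 and 25 fragments in HT-29 (-0.90, -1.76 to -0.23) and 25 and 23 in NCM460 (-0.57, -1.48 to 0.28). SCP2, which encodes a thiolase for branched chains and a sterol carrier protein, had 50 and 33 fragments in HT-29 (-0.78, -1.51 to -0.17) and 4 and 20 in NCM460 (1.63, 0.27 to 3.86). Like ABCD3 it was lower in one line and higher in the other. The HT-29 calls of ACAA1 and SCP2 were lost under scaling by total fragments (-0.66 and -0.53), and that of ACAA1 also after thinning to equal nuclear depth (-0.30). The NCM460 call of SCP2 was lost when the trend on GC content (0.59) or on expression (1.32) was subtracted. HSD17B4, the enzyme of the middle steps, had 116 and 168 fragments in HT-29 (0.30, -0.05 to 0.66) and 11 and 49 in NCM460 (1.60, 0.72 to 2.77), a call in NCM460 alone. That call was lost when the GC trend was subtracted, and its FPKM values, 16.1 and 23.1, did not pass 1.5-fold. These 3 loci are each listed with another gene: a Y RNA for ACAA1, the pseudogene TUBBP10 for SCP2 and FAM170A for HSD17B4. ACOX3, an oxidase of the first step, had 11 and 13 fragments in HT-29 (0.01, -1.27 to 1.31). It was the lowest of the peroxisomal genes in NCM460 at 11 and 5 fragments, without being called (-1.39, -3.49 to 0.03). EHHADH, the bifunctional enzyme, was close to absent, with 3, 4, 0 and 3 fragments in the 4 libraries.

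CAT (ENSG00000121691, chromosome 11 from 34438925 to 34472062) encodes catalase, which degrades hydrogen peroxide in the peroxisome. It had 78 fragments in the HT-29 control and 30 with SCS, or 15.8 and 6.31 FPKM. In NCM460 cells it had 5 and 31 fragments, or 3.26 and 18.6 FPKM. The log2 fold changes were -1.52 (-2.27 to -0.99) and 1.96 (0.78 to 3.88). Of the 17 peroxisomal genes it was the lowest by fold in HT-29. Its calls in both lines held in all 13 alternative settings run on fragments, and its FPKM values passed 1.5-fold in the same directions.

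The carnitine shuttle brings long-chain acyl groups into the mitochondrion. CPT1A, its rate-limiting outer-membrane enzyme, had 108 and 106 fragments in HT-29 (-0.25, -0.66 to 0.14) and 130 and 128 in NCM460 (-0.49, -0.86 to -0.13), below the 1.5-fold needed for a call. CPT2, which releases the acyl group inside, had 32 and 20 fragments in HT-29 (-0.82, -1.79 to -0.06) and 19 and 12 in NCM460 (-1.05, -2.31 to -0.02). It was called lower in both lines, and both intervals ended close to 0. Scaling by total fragments ended both calls (-0.58 and -0.40), as did thinning to equal nuclear depth (-0.45 and -0.87). Nuclear scaling and the subtraction of the GC trend also ended the call in NCM460, though CPT2 stayed at -0.88 and -0.87 there. The carrier SLC25A20 had 4, 9, 7 and 4 fragments in the 4 libraries and was called in neither line.

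The acyl-CoA dehydrogenases start each round of oxidation. ACADVL, for very long chains, had 219 and 318 fragments in HT-29 (0.30, 0.05 to 0.56) and 108 and 153 in NCM460 (0.03, -0.34 to 0.40). ACADM, for medium chains, had 111 and 180 in HT-29 (0.46, 0.12 to 0.82) and 50 and 95 in NCM460 (0.44, -0.06 to 0.98), and its locus is shared with RABGGTB and 3 small nucleolar RNA genes. ACADS, for short chains, had only 5, 8, 12 and 17 fragments. None of the 3 was called in either line.

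HADHA and HADHB encode both subunits of the mitochondrial trifunctional protein, and in HT-29 cells HADHB alone was called. HADHA (ENSG00000084754, chromosome 2 from 26190635 to 26244726, minus strand) had 235 fragments before SCS and 224 after it (-0.30, -0.57 to -0.03). HADHB (ENSG00000138029, chromosome 2 from 26243170 to 26290468, plus strand) had 21 and 90 (1.75, 1.17 to 2.63). By FPKM, HADHA went from 32.0 to 21.9 and HADHB from 5.53 to 19.4, so that subunits far apart in the control library lay close together with SCS. In NCM460 cells the counts were 49 and 83 for HADHA (0.28, -0.24 to 0.83) and 9 and 15 for HADHB (0.24, -1.02 to 1.64), with no call. HADHB was the highest of the mitochondrial genes by fold in HT-29, and its call held in all 13 alternatives. The genes overlap head to head in the annotation, and reads from the stretch they share cannot be placed without strand. Their RefSeq starts lie 307 bases apart, and the promoter windows, from 250 bases before to 50 bases after each start (GRCh38.p14), share 194 bases. They are shown because genes with this common upstream stretch gave unlike counts. Capitals mark the shared bases, and each is written 5′ to 3′ on the strand of its gene, HADHA from chr2:26244583-26244882 (minus) and HADHB from chr2:26244689-26244988 (plus).
HADHA: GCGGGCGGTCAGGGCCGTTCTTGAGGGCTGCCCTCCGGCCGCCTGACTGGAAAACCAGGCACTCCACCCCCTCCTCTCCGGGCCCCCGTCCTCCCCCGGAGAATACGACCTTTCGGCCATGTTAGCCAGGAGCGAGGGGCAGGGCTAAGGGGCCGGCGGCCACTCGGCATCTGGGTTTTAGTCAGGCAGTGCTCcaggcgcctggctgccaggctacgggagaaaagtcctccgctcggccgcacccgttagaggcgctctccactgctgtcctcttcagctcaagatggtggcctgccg
HADHB: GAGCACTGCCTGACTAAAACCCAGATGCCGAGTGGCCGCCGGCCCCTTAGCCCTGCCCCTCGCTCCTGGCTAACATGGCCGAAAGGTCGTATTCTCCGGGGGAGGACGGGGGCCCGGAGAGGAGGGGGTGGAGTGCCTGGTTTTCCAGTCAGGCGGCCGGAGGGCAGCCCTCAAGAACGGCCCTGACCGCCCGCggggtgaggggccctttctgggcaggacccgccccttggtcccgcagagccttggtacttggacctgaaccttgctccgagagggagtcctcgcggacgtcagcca

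Of the other enzymes of hydration, dehydrogenation and thiolysis, HADH and ECHS1 were lower with SCS in HT-29. HADH, the dehydrogenase for medium and short chains, had 42 and 15 fragments in HT-29 (-1.54, -2.67 to -0.84) and 19 and 25 in NCM460 (-0.07, -0.997 to 0.86). ECHS1, the short-chain hydratase, had 144 and 70 fragments in HT-29 (-1.24, -1.71 to -0.85) and 22 and 17 in NCM460 (-0.80, -1.85 to 0.13). HADH was the lowest of the mitochondrial genes by fold in HT-29. The call of ECHS1 held in all 13 alternatives, and that of HADH in all but thinning to equal nuclear depth (-0.65).

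ACAA2 (ENSG00000167315, chromosome 18 from 49782167 to 49813960), the mitochondrial thiolase, had 163 and 334 fragments in HT-29 (0.79, 0.53 to 1.08) and 41 and 58 in NCM460 (0.03, -0.57 to 0.64). Its deposited FPKM ran the other way in HT-29, from 21.1 to 14.7. The locus is listed with MYO5B, which it overlaps, and a noncoding gene, and which of them the fragments came from cannot be told. The direction for ACAA2 in HT-29 is therefore uncertain. RefSeq promoters were found for 30 of the 36 genes, 41 windows in all, and PEX2, PEX14, ACAA1, EHHADH, DECR1 and ETFDH had none. They were searched on both strands for DR1, the element of PPAR and RXR receptors, which is AGGTCA repeated after 1 base, and for the element of the estrogen-related receptor ERRA, TCAAGGTCA. No window of the 36 genes held either in full, where 8 (0.0228%) and 124 (0.353%) of all 35116 windows did. With up to 1 mismatch in each AGGTCA, DR1 was found in 1 of the 41, that of ACAA2, and in 618 (1.76%) of all windows. The match begins 76 bases before the start and is a likeness of letters, not a site shown to be bound. The ACAA2 window is given with the match in capitals, from chr18:49813484-49813783 on the minus strand.
ACAA2: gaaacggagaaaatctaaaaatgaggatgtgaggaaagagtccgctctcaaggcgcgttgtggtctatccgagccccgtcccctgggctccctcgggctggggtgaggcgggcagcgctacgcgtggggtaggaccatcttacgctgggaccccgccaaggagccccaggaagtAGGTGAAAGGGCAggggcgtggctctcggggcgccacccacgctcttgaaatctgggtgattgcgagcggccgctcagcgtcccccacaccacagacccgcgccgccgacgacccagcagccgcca

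Oxidation of unsaturated chains needs auxiliary enzymes. ECI1, an isomerase for such chains, had 38 fragments in the HT-29 control and 96 with SCS (1.05, 0.55 to 1.69), and its call held in all 13 alternatives run on fragments, while its FPKM values, 19.6 and 27.4, did not pass 1.5-fold. In NCM460 cells it had 42 and 57 fragments (-0.03, -0.63 to 0.58). DECR1, a reductase, had 8, 7, 10 and 20 fragments and was called in neither line.

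The electron transfer flavoprotein takes the electrons of the acyl-CoA dehydrogenases and hands them to ETFDH. Both of its subunits were called lower in HT-29. ETFA had 128 and 86 fragments there (-0.78, -1.22 to -0.40), and ETFB had 191 and 147 (-0.60, -0.93 to -0.29). In NCM460 cells ETFA alone was called, at 20 and 57 fragments (1.00, 0.28 to 1.85), the highest fold of the mitochondrial genes in that line. ETFB had 44 and 53 fragments there (-0.20, -0.81 to 0.41), and the subunits were not tested against each other. Both HT-29 calls were lost with total fragments (-0.52 and -0.33), that of ETFA also after thinning to equal nuclear depth (-0.49) and that of ETFB also with the GC trend subtracted, where it stood at -0.56 (-0.89 to -0.25), just under 1.5-fold. The same step ended the NCM460 call of ETFA, where ETFA then stood at 0.33 and ETFB at 0.43. By FPKM, the NCM460 values of ETFA, 30.5 and 44.8, did not pass 1.5-fold. The locus of ETFB is listed with CLDND2 and a noncoding gene. ETFDH had 2, 8, 4 and 4 fragments, and its log2 ratio in HT-29 of 1.77 had an interval from -0.56 to 5.04.

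Of the 3 genes kept apart from both compartments, ABCD4 was called higher in both lines. It had 13 and 31 fragments in HT-29 (0.89, 0.05 to 2.08) and 5 and 24 in NCM460 (1.61, 0.37 to 3.54), at a locus listed with another gene, and the HT-29 call was lost under nuclear scaling (0.77), thinning to equal nuclear depth (0.70) and TMM within the line (0.86). HSDL2, a dehydrogenase-like protein, had 79 and 65 fragments in HT-29 (-0.49, -1.01 to -0.02). In NCM460 cells it had 0 in the control and 27 with SCS, at least 6.48-fold higher with the control set at a floor of 3 fragments. That fold leaves out counting error, and the interval began lower, at 2.30 on the log2 scale, with no upper end. ECI2, an isomerase of both organelles, had 13 and 26 fragments in NCM460 (0.49, -0.49 to 1.61) and only 1 and 3 in HT-29.

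Across both lines, 14 of the 35 genes compared in HT-29 were called, beside 31.5% of all loci, and 8 of 36 in NCM460, beside 29.2%. The 6 called in both lines stand beside 11.4% of the 10849 loci compared in both. Of these, CPT2 was lower in both and ABCD4 higher in both, beside 7.58% of loci called in the same direction. CAT, ABCD3, SCP2 and ETFA were lower with SCS in HT-29 and higher in NCM460, beside 3.83% of loci called in opposite directions. A model of a change shared by both lines, fitted to all 4 libraries with 1 residual degree of freedom, called 8 of 12975 loci (0.0617%) by edgeR's quasi-likelihood test at an adjusted p under 0.05, and 0 of the 36. At an unadjusted p under 0.05 it held 673 loci and again 0 of the 36. DESeq2 called 37 of only 1295 loci tested, and 0 of the 4 genes it gave an adjusted p. The smallest unadjusted p among the 36 was 0.0786, for ABCD4, with a log2 fold change of 1.33 and an adjusted p of 0.952 by edgeR, higher with SCS in 2 of 2 lines.

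**Figure D3:**
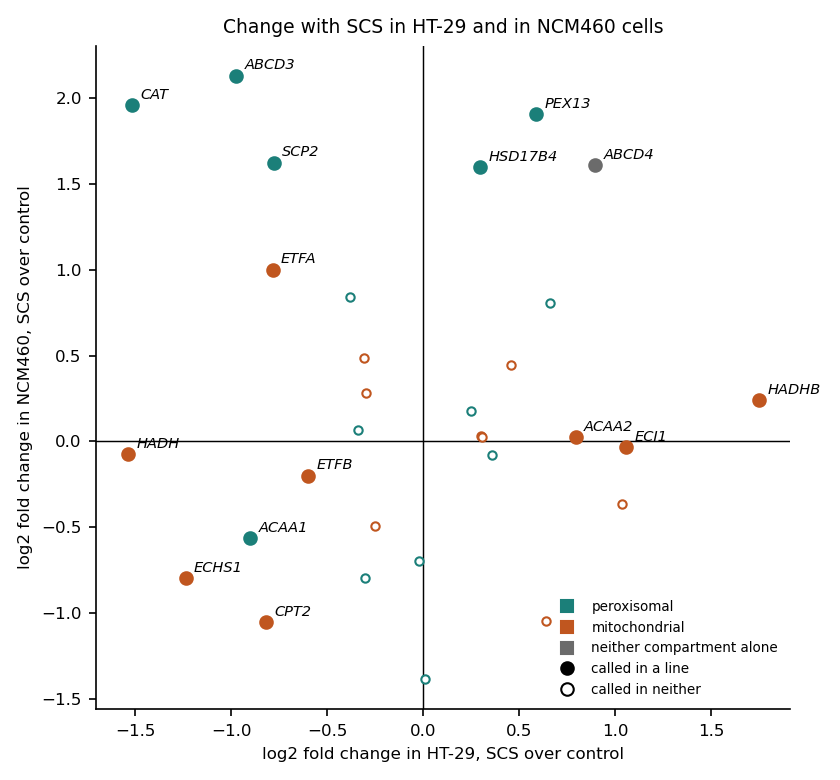
Log2 fold change of SCS over control in HT-29 cells (horizontal) against NCM460 cells (vertical) for the 31 genes with fragments in all 4 libraries and more than 3 in a library of each line. Filled and named points were called in at least 1 line, and CAT, ABCD3, SCP2 and ETFA lie at the upper left, lower with SCS in HT-29 and higher in NCM460.

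GC content of the transcript and fold change were related in NCM460 cells. Across 7332 loci averaging 10 CPM or more, Spearman's rho was -0.74, against -0.17 across 7531 loci in HT-29, where the loci of 1 library pair are not independent. Across the 36 genes, whose GC content ran from 35.4% to 64.9%, rho was -0.57 in NCM460, and across the 35 compared in HT-29 it was 0.19. The genes called higher in NCM460 other than ABCD4 lay at the low end: ABCD3 at 38.0%, HSDL2 at 40.4%, SCP2 at 42.0%, HSD17B4 at 43.2%, ETFA at 45.1% and CAT at 45.2%. With a smooth GC trend taken off in each line, 5.94% of loci in NCM460 were called higher and 6.21% lower. Of the peroxisomal genes 2 of 17 were then called higher, CAT at 1.30 (0.13 to 3.22) and PEX16 at 1.49 (0.25 to 3.08). The peroxisomal median moved to 0.59, or 0.13 with low counts at the floor, and the mitochondrial median to -0.31, while that of all loci was -0.01. ABCD3 stood at 0.82 (-0.44 to 3.04), HSD17B4 at 0.68 (-0.20 to 1.85), SCP2 at 0.59 (-0.77 to 2.82) and ETFA at 0.33 (-0.39 to 1.18), none of them called. ABCD4 stayed called at 2.08 (0.85 to 4.01), as did HSDL2, at least 2.88-fold higher with its control set at the floor of 3 fragments. That fold leaves out counting error, and the interval of HSDL2 began lower, at 1.13 on the log2 scale. Among mitochondrial genes, ACADVL and ECI1 became called higher (0.62, 0.25 to 0.99, and 0.68, 0.08 to 1.29) and ACADM lower (-0.72, -1.22 to -0.18). In HT-29, with 14.5% of loci called higher and 16% lower after the same step, PEX13 and ETFB lost their calls and HSDL2 was called lower at -0.72 (-1.24 to -0.25).

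**Figure D4:**
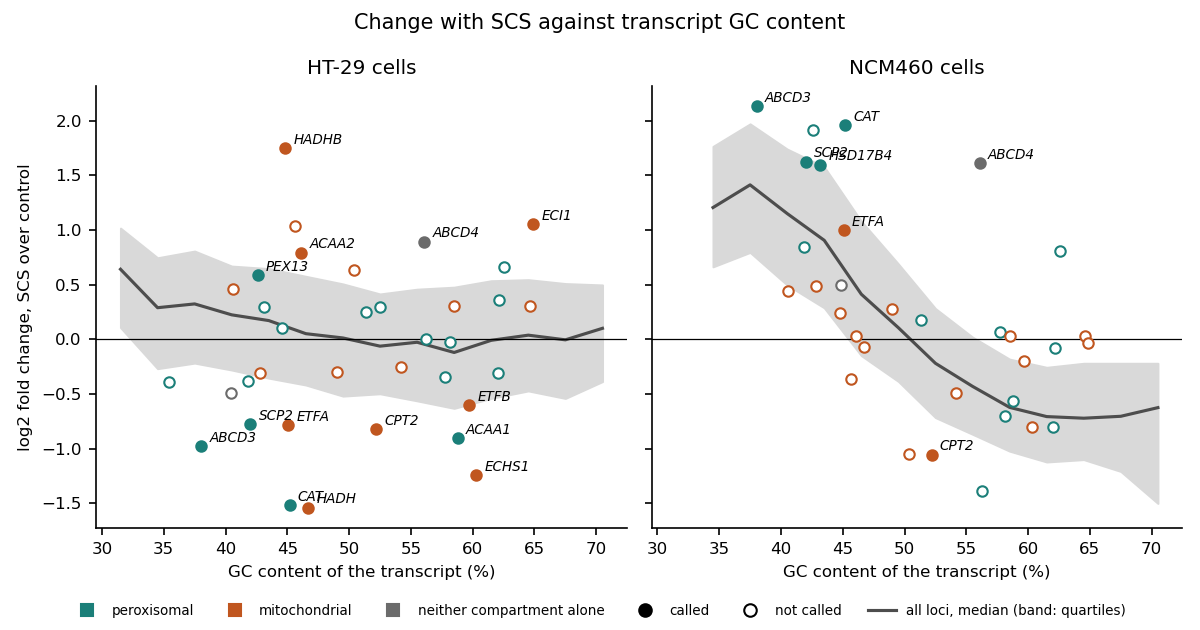
Log2 fold change of SCS over control against transcript GC content, in HT-29 cells on the left and NCM460 cells on the right. The line and band are the median and quartiles of all loci in steps of GC content, and points are the genes with at least 1 fragment in both libraries and more than 3 in one, filled and named where called. In NCM460 cells ABCD3, SCP2 and HSD17B4 lie near the upper edge of the band, while CAT and ABCD4 lie further above it.

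The deposited FPKM gave lower values with SCS for more of the genes than the fragments did. With 0.5 added, the median log2 fold change of FPKM was -0.11 for peroxisomal and -0.45 for mitochondrial genes in HT-29, where that of all loci was -0.11. In NCM460 it was -0.06 and -0.46, where that of all loci was -0.30. Fragments and FPKM differed in sign for 5 of 35 genes in HT-29 and for 10 of 36 in NCM460, beside 1878 of 12168 and 2085 of 12657 loci. Of the called genes, ACAA2 in HT-29 was the only one to turn. By FPKM, CAT had a log2 fold change of -1.26 in HT-29 and 2.34 in NCM460, and ABCD3 had -1.55 and 1.62.

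**Figure D5:**
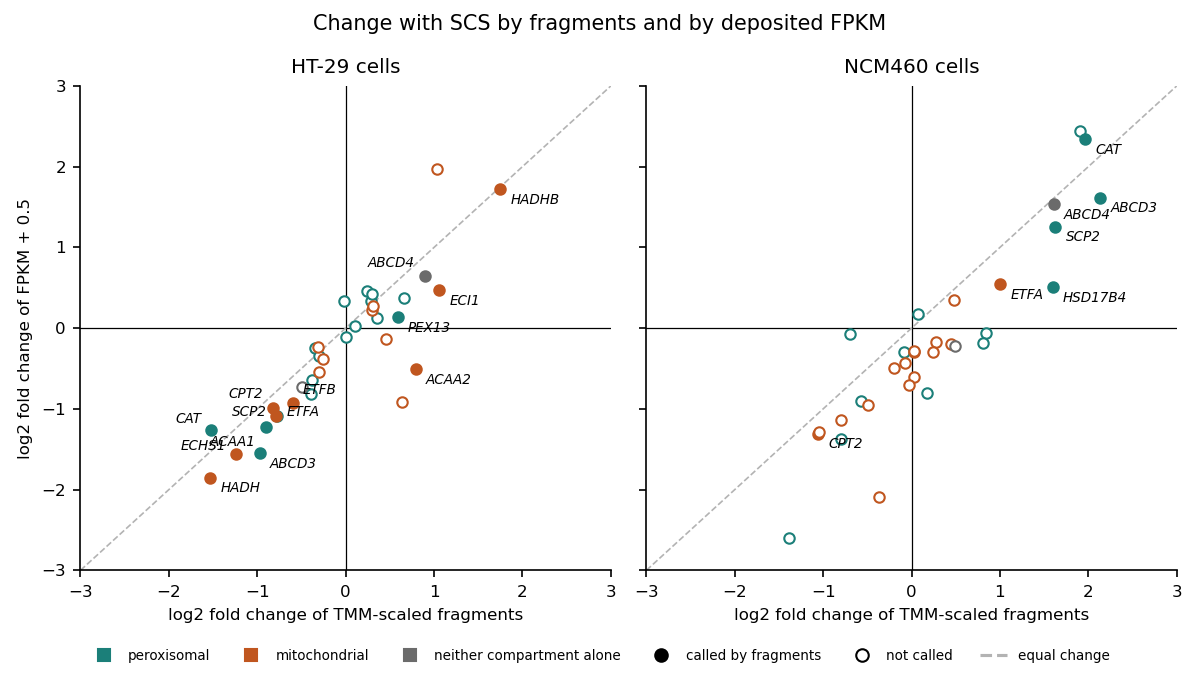
Log2 fold change of SCS over control by TMM-scaled fragments (horizontal) against that by deposited FPKM with 0.5 added (vertical), in HT-29 cells on the left and NCM460 cells on the right. Points are the genes with at least 1 fragment in both libraries and more than 3 in one, filled and named where called, and the dashed line marks equal change. ACAA2 lies at the lower right in HT-29, higher by fragments and lower by FPKM.

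Other genes of the same pathways were compared as lists, beside backgrounds of 16.8% of loci called higher and 14.8% lower in HT-29 (median 0.07) and 15.4% and 13.8% in NCM460 (median 0.03). Of 31 further peroxisomal genes, 26 were compared in HT-29 (2 called higher or 7.69%, 5 lower or 19.2%, median -0.11) and 28 in NCM460 (3 higher or 10.7%, 2 lower or 7.14%, median 0.30, or 0.11 with low counts at the floor). At a mean of at least 5 CPM, the highest and lowest in HT-29 were SLC27A2, an acyl-CoA synthetase, with 33 and 76 fragments (0.92, 0.36 to 1.61), and DECR2, a peroxisomal reductase at a locus shared with NME4, with 50 and 20 (-1.42, -2.38 to -0.78). In NCM460 they were AGPS, an enzyme of ether lipid synthesis, with 3 and 27 fragments, a log2 ratio of 2.70 (1.00 to 5.06), and PXMP2, a membrane channel at a locus shared with PGAM5, with 73 and 53 (-0.92, -1.47 to -0.41). With the GC trend subtracted, AGPS (interval from -0.18 to 3.89) and PXMP2 (-0.35, -0.91 to 0.16) lost their calls, as did the other genes of this list called in NCM460, and 1 gene was called higher and 1 lower that had not been called.

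Of 18 further mitochondrial genes of fatty acid oxidation, 15 were compared in each line. In HT-29, 6 were called higher (40.0%) and 1 lower (6.67%), with a median of 0.39. At a mean of at least 5 CPM, the highest was PCCA, a subunit of propionyl-CoA carboxylase, with 14 and 71 fragments (1.93, 1.27 to 3.05), and the lowest was ACAD9, with 89 and 50 (-1.02, -1.59 to -0.55). In NCM460, 1 was called higher (6.67%) and 3 lower (20%), with a median of -0.00. There the carnitine transporter SLC22A5 was highest at the same minimum, with 2 and 16 fragments, a log2 ratio of 2.53 (0.44 to 5.69). With the GC trend subtracted the 3 lower calls in NCM460 were lost, 2 genes were called higher, and the median was -0.43.

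Among 14 regulators and PPAR targets, the lipid-sensing receptors were called in both directions. In HT-29, 4 of 11 compared were called higher (36.4%) and 2 lower (18.2%), with a median of 0.08. By the same minimum, PPARD, a PPAR receptor, had 34 and 114 fragments (1.45, 0.95 to 2.11), the highest, and RXRA, the partner of the PPAR receptors, had 190 and 113 (-0.96, -1.33 to -0.64), the lowest. In NCM460, 1 of 12 was called higher (8.33%) and 2 lower (16.7%), with a median of -0.09. That median was -0.38 with low counts at the floor and turned to 0.24 with the GC trend subtracted. PPARG was highest there with 3 and 23 fragments, a log2 ratio of 2.47 (0.74 to 4.84), while it was called lower in HT-29 at 89 and 63 (-0.70, -1.22 to -0.25). PPARA, named after its values were seen, was called higher in HT-29 at 59 and 136 fragments (0.94, 0.52 to 1.44). So were the targets PLIN2, at 1 and 16 (a log2 ratio of 3.77, 1.08 to 9.16), and PDK4, at 40 and 80 (0.73, 0.20 to 1.35). The target ANGPTL4 had 0 fragments in HT-29 and was called lower in NCM460 at 86 and 53 (-1.15, -1.69 to -0.66). With the GC trend subtracted, PDK4 (0.48) and ANGPTL4 (-0.46) lost these calls, and PLIN2 was called lower in NCM460 (-1.23, -2.49 to -0.17). In NCM460, RXRA was lowest with 46 and 17 (-1.83, -2.81 to -1.08). RXRA was therefore called lower in both lines. ACACB, which makes the malonyl-CoA that inhibits CPT1A, had 8, 7, 17 and 13 fragments in the 4 libraries and was called in neither line. Its deposited FPKM were lower with SCS in both lines, 4.26 and 0.585 in HT-29 and 14.0 and 1.57 in NCM460. PPARGC1A and FABP1 were listed at 0 in all 4.

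The lines were checked against markers of colon epithelium and of other cell types. The 11 epithelial markers summed to 2969 FPKM in control and 1458 in SCS-treated HT-29 cells, and to 1818 and 859 in NCM460 cells, with KRT8 the most abundant in each line. EPCAM had 492 and 605 fragments in HT-29 and 36 and 126 in NCM460. VIL1, LGALS4, KRT20 and CDH17 had 0 fragments in both NCM460 libraries and CDX2 had 0 in both HT-29 libraries. CDH17 was close to absent in HT-29 too, with 1 fragment in the control and 0 with SCS. CDX1 and GPA33 were listed at 0 in all 4, so several defining markers of colon epithelium were not detected, more of them in NCM460. The 7 mesenchymal markers summed to 4.38, 2.19, 17.2 and 10.7 FPKM, with COL1A1 the most abundant in HT-29 (2.74 and 1.31), VIM in the NCM460 control (8.32) and COL1A1 in NCM460 with SCS (6.17), and with COL1A2, COL3A1 and TWIST1 at 0. Of 4 leukocyte markers, PTPRC and CD3E were at 0, CD79A had 3 fragments at most, and CD68 cannot be read apart from EIF4A1 at the same locus. The 3 endothelial markers held 3, 0, 1 and 2 fragments in all, and of the 3 hepatocyte markers ALB and APOA1 were at 0 while CPS1 had 0, 0, 10 and 37 fragments. The summed epithelial level was lower with SCS in both lines, mostly through KRT8 and KRT18, and its part in the values of the 36 genes was not tested. Single markers went the other way: CDH1 (267 and 526 fragments), KRT20 (119 and 306) and LGALS4 (138 and 464), named after their values were seen, were called higher in HT-29, where KRT8, KRT18 and VIL1 were called lower, VIL1 the most by fold at 138 and 24 fragments (-2.61, -3.45 to -2.12), and EPCAM was called higher in NCM460. KRT8 (-0.80, -0.92 to -0.69) and KRT18 (-1.03, -1.23 to -0.84) were called lower in NCM460 as well. Both of these calls ended with the GC trend subtracted (-0.23 and -0.51), while EPCAM was still called higher (0.64, 0.12 to 1.24).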

How the data were processed

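RNA-seq of HT-29 and NCM460 cells, with and without SCS, was analysed with 1 library per condition. The submitters' processing notes name bcl2fastq 2.17.1.14, cutadapt 1.9.1, Bowtie2, HTSeq 0.6.1 and hg19, while the coordinates deposited are those of GRCh38. The deposited count columns hold a signal, fragment counts that the authors had scaled, each library by its own factor. Dividing each by the value that stands for 1 fragment returned whole numbers, within 0.1, for 99.9%, 99.9%, 100% and 99.9% of values above 0 (HT-29 control, HT-29 SCS, NCM460 control, NCM460 SCS), and these whole fragments were used. The design had assumed counts. The FPKM values were deposited by the authors, and how they set transcript length is not given in the sources used here. Of 64962 rows, 26 without a gene name (0.00581% to 0.0352% of fragments) were left out, and adjacent rows with identical values were merged into 18650 loci. Of the 36 genes, 9 share such a locus with another gene.

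Fragments were scaled by TMM factors of edgeR 4.0.16 over all 4 libraries. Loci were compared in a line where they averaged 1 CPM or more, with exact Clopper-Pearson intervals from scipy 1.17.1. A floor of 3 fragments was used for genes at 0, and genes with 1 to 3 are given by their ratio and interval. GC content came from GENCODE release 29, and its trend was fitted by lowess with a span of 0.3. An additive model of line and SCS (edgeR, with DESeq2 1.42.0 as the alternative) was added after seeing the data. The methods were tested on simulated data, with changes well past 1.5-fold placed at loci of higher counts. For calls within a line the simulation held counting error alone, so it cannot speak to variation between cultures or to small changes. Genes are named where they were called in a line, were highest or lowest of a list among genes averaging 5 CPM or more, or had the highest FPKM of a class in a control, with ABCD3 and ACACB added. The members and lists were chosen with earlier results of these data known. Alternatives were other scalings, priors, filters, trends, thinning, a 2-fold call, FPKM and other groupings of the genes.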

Additional observations from a re-analysis of the deposited data

Results flagged for a closer look

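In 4 genes the change with SCS was called in opposite directions in both lines, lower in HT-29 and higher in NCM460. Of the 10849 loci compared in both lines, 213 (1.96%) were called in this way. With 1 library per condition the difference between the lines was not tested, and the intervals given for it are exact conditional ones that cover counting error only. CAT had 78 and 30 fragments in HT-29 and 5 and 31 in NCM460, a log2 fold change higher in NCM460 by 3.48 (2.19 to 5.59). ABCD3 had 81 and 47 against 4 and 29, a difference of 3.10 (1.75 to 5.43). SCP2 had 50 and 33 against 4 and 20, a difference of 2.40 (0.91 to 4.79), and ETFA had 128 and 86 against 20 and 57, a difference of 1.79 (0.96 to 2.75). All 4 had at most 20 fragments in the NCM460 control and transcripts of 38.0% to 45.2% GC, a range in which the median NCM460 fold change of all loci also lay above 0. With the GC trend of each line subtracted, the differences were 2.92 (1.63 to 5.02) for CAT, 2.07 (0.71 to 4.40) for ABCD3, 1.56 (0.07 to 3.95) for SCP2 and 1.21 (0.39 to 2.18) for ETFA. After that step CAT alone of the 4 was still called higher in NCM460.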

How the results depend on the processing

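With 1 library per condition and 210 to 842 fragments summed over the peroxisomal genes, depth limited what could be called, and all intervals leave out variation between cultures. A prior count of 0.5 and no filter on low counts left every call of the 36 genes in place. Of the called genes, ACAA2 in HT-29 alone reversed, to -0.51 with the deposited FPKM. Genes not called also changed sign, among them ACADM in NCM460, from 0.44 to -0.72 and called lower with the GC trend subtracted, and SLC25A20 in HT-29, from 0.64 to -0.92 by FPKM. In the values that follow, the medians and numbers called were, as reported, -0.02 with 1 higher and 4 lower (peroxisomal) and 0.03 with 5 lower (mitochondrial) in HT-29, and 0.29 with 4 higher and 0 lower and -0.00 with 1 higher and 1 lower in NCM460. Total fragments gave a peroxisomal median of 0.24 with 2 higher and 2 lower and 2 mitochondrial genes lower in HT-29, and 8 peroxisomal genes higher and a mitochondrial median of 0.64 with 7 higher and 0 lower in NCM460. Among all loci that scaling called 3148 of 12658 higher and 1115 lower in HT-29. In NCM460 it called 3945 of 12096 higher and 248 lower, with a median of 0.65. Nuclear fragments gave 0 peroxisomal genes higher and a mitochondrial median of -0.12 in HT-29, and 0.17 with 2 mitochondrial genes higher and 0 lower in NCM460. The background was then 1500 of 13330 loci higher and 2293 lower in HT-29, and 2385 of 13106 higher and 1242 lower in NCM460. DESeq2's size factors gave 0 peroxisomal genes higher in HT-29 and 2 peroxisomal and 2 mitochondrial lower in NCM460, and the authors' scaling 0, 3 and 3. Loci called lower in NCM460 numbered 2047 of 13106 with DESeq2's factors and 2182 of 13834 with the authors' scaling. TMM within each line, chosen after seeing the data, gave 0 peroxisomal genes higher and a mitochondrial median of -0.041 in HT-29. FPKM gave 0 peroxisomal genes higher and a mitochondrial median of -0.45 in HT-29, and a peroxisomal median of -0.060 with 4 lower and 0 mitochondrial genes higher and 7 lower in NCM460. Past 1.5-fold by FPKM, 2420 of 12168 loci were higher and 3403 lower in HT-29. In NCM460, 3022 of 12657 were higher and 4942 lower. Subtracting the GC trend left 0 peroxisomal genes higher in HT-29, and 2 peroxisomal and 2 mitochondrial genes higher in NCM460. Subtracting the trend on expression gave 0 and a mitochondrial median of -0.037 in HT-29, and 1 peroxisomal gene lower and a mitochondrial median of 0.0051 with 2 higher in NCM460. The trend on length gave 0 and -0.022 in HT-29, and 2 peroxisomal and 2 mitochondrial genes lower in NCM460, where 2043 of 12584 loci were called lower. Thinning to equal nuclear depth left 0 peroxisomal genes higher and 2 mitochondrial lower in HT-29 and 0 mitochondrial lower in NCM460. After thinning, 1254 of 12692 loci were called higher and 1386 lower in HT-29, and 1676 of 14989 lower in NCM460. A 2-fold call left 0 peroxisomal genes higher, 1 lower and 2 mitochondrial lower in HT-29. Counting ABCD4, ECI2 and HSDL2 as peroxisomal gave 2 higher in HT-29 and a median of 0.65 with 6 higher in NCM460. The NCM460 peroxisomal median also moved to 0.85 with total fragments, 0.59 with the GC trend and 0.47 with the expression trend subtracted, 0.55 without loci of several genes, 0.44 with a prior count of 0.5, 0.18 at a minimum of 5 CPM and 0.16 after thinning. Leaving out loci of several genes gave 2 peroxisomal genes lower and a mitochondrial median of -0.25 in HT-29 and 2 peroxisomal higher in NCM460. A minimum of 5 CPM gave a peroxisomal median of -0.30 in HT-29 and mitochondrial medians of -0.27 and 0.026 in HT-29 and NCM460. For a change shared by both lines, a model chosen after seeing the data, edgeR called 8 of 12975 loci tested and DESeq2 called 37 of 1295. Apart from fewer genes entering under the minimum of 5 CPM and without shared loci, and fewer fragments under thinning, the cause was not tested.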

Other observations

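The counting interval of the difference between the lines also excluded 0 for 6 genes that were not called in opposite directions, a difference that was not tested. No such share was counted over all loci, so this number cannot be set beside a background. The log2 fold change with SCS, not the level, was higher in NCM460 than in HT-29 by 1.30 (0.34 to 2.53) for HSD17B4 and by 1.46 (0.32 to 2.98) for HADH. That of HADHB differed by -1.51 (-3.10 to -0.03), that of ECI1 by -1.09 (-1.98 to -0.29) and that of ACAA2 by -0.77 (-1.44 to -0.10). By FPKM the changes of ACAA2 were -0.51 in HT-29 and -0.61 in NCM460, so its difference rests on the fragments. HSDL2 had a difference of at least 2.73 by the end of its interval. With the GC trends subtracted, the intervals of HADHB (-2.11, -3.70 to -0.63) and ACAA2 (-1.24, -1.92 to -0.57) still excluded 0, as did that of HSDL2, and those of HSD17B4, HADH and ECI1 did not. ACADM (-0.94, -1.57 to -0.31) and ETFB (0.99, 0.30 to 1.69) excluded 0 only after that step.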
